A study of Homo sapiens with 12 samples.

Results

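The late state of unedited MDA-MB-231 cells after stimulation with PMA/Ionomycin was described across all genes by comparing WT cells at 24 h with WT cells at 0 h. MDA-MB-231 is a human triple-negative breast cancer line of mesenchymal appearance. PMA is a phorbol ester that activates protein kinase C, and Ionomycin is a calcium ionophore. The series holds 12 RNA-sequencing libraries: WT cells and ΔCRE cells, each at 0, 6 and 24 h of stimulation with 2 biological replicates. In ΔCRE cells, part of a core regulatory element of the ETS1 promoter had been deleted. The comparison used 4 libraries, 2 of WT cells with no stimulation and 2 of WT cells stimulated for 24 h. No unstimulated library at 24 h is in the series for either genotype. Effects of stimulation and of time in culture therefore cannot be told apart. The 2 WT libraries at 6 h entered the same model as the middle time point, and the ΔCRE libraries served only to set values side by side. The number of clones behind the ΔCRE libraries is not given in the sources used here.

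The members are the features of the deposited table with a mean of at least 1 FPKM over the 4 libraries (fragments scaled to the length of the transcript and to the size of the library). They were 11303 of 24331 features, and 16756 features were above 0 in at least 1 of the 4. Fold changes are differences of log2(FPKM + 1), 24 h minus 0 h, and such a fold change is smaller than the ratio of FPKM where levels are low. Called means an adjusted p under 0.05 in limma, with Benjamini-Hochberg adjustment over the 11303 features and all 6 WT libraries in 1 model. A second rule adds a difference of at least 2-fold. A comparison of 2 with 2 libraries for 1 gene alone cannot give an exact permutation p below 0.333, so the calls rest on the spread shared across genes.

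The 4 libraries were alike in depth and makeup. Their FPKM values summed to between 566255 and 600054. FPKM does not state the depth. A rough estimate was the most frequent ratio, rounded to 3 decimals, of values under 0.3 FPKM to those of WT 0 h replicate 1, which 48 to 274 of 1730 to 1852 such features shared in the other WT libraries, and it put their depth between 0.957 and 1.06 times that of WT 0 h replicate 1. Pearson's r of log2(FPKM + 1) across the tested features was 0.978 between the 0 h replicates and 0.984 between the 24 h replicates, and between 0.937 and 0.947 from a 0 h to a 24 h library. These correlations are across genes, which are not independent replicates. In all libraries vimentin (VIM) stood near the top, at 1656 and 1543 FPKM at 0 h and 1614 and 1597 FPKM at 24 h. Other markers of the line did change. Of 10 tested markers, VIM included, 4 were higher at 24 h, 5 lower and 1 not called (median -0.39). Over all tested features 25.9% were higher and 27.8% lower. Among these markers 3 were lower by at least 2-fold. The luminal markers ESR1, PGR and CDH1 were at or below 0.0246 FPKM in each of the 4 libraries. Other luminal markers were present: at 0 h the keratins KRT8 and KRT18 read 506 and 446 FPKM and 506 and 489 FPKM, KRT19 66.0 and 59.3 FPKM, EPCAM 3.12 and 3.38 FPKM and GATA3 2.35 and 2.83 FPKM. Of 11 leukocyte markers only CD68, which is also a lysosomal membrane protein of other cells, was high enough to be tested, with 33.8 and 26.1 FPKM at 0 h and 91.7 and 86.7 FPKM at 24 h. The other 10 did not exceed 0.777 FPKM, and the pan-leukocyte gene PTPRC did not exceed 0.0243 FPKM. Of 10 markers of fibroblasts and endothelium, COL1A1 and PDGFRB were tested, and the highest value of the list was 1.61 FPKM. None of 11 gut markers passed the filter on low values.

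Protein kinase C and calcium drive an early wave of transcription through AP-1, NF-κB and NFAT. Its products include both the secreted signals of inflammation and the inhibitors that end the wave. In carcinoma cells these pathways are also known to act on matrix proteases and on the cell cycle. In a bulk RNA sample, a lower level can mean fewer cells that express a gene or less RNA per cell, and these cannot be told apart.

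At 24 h, 6063 of the 11303 features differed from 0 h. Higher features numbered 2925 (25.9% of those tested) and lower features 3138 (27.8%), and 6735 features had an unadjusted p under 0.05. Most of the calls were small, since 1765 of the higher and 2226 of the lower features differed by less than 1.5-fold. With the limit of 2-fold, 377 features were higher (3.34%) and 184 were lower (1.63%), and these counts rise to 584 and 311 with a pseudocount of 0.1. Among them were 3 higher and 7 lower features of small RNAs, which are not read as changes here. By at least 4-fold 68 features were higher, 3 of them small RNAs, and 15 were lower, 5 of them small RNAs. The 377 higher features went from a median of 4.50 to 14.6 FPKM, and 73 of them started below 1 FPKM. Such a gene could pass the filter on low values only by being higher at 24 h, so for lists that hold many of them the counts below also give the genes at 1 FPKM or more at both times. The 184 lower features started higher, at a median of 17.3 FPKM, and ended at 6.04 FPKM. Lists with members on both sides are read against the shares of all features, 25.9% higher and 27.8% lower. The median difference of all tested features was -0.02. Without WT 24 h replicate 1 the lower features numbered 2066. With all 12 libraries in 1 model, which takes in the ΔCRE 0 h library that stands apart from the rest, 775 features were higher and 522 lower, and 48 of the 186 differences of single genes given here or against 6 h were no longer called. Without that 1 library, in a model of 11, the counts were 3013 and 3210.

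**Figure D1:**
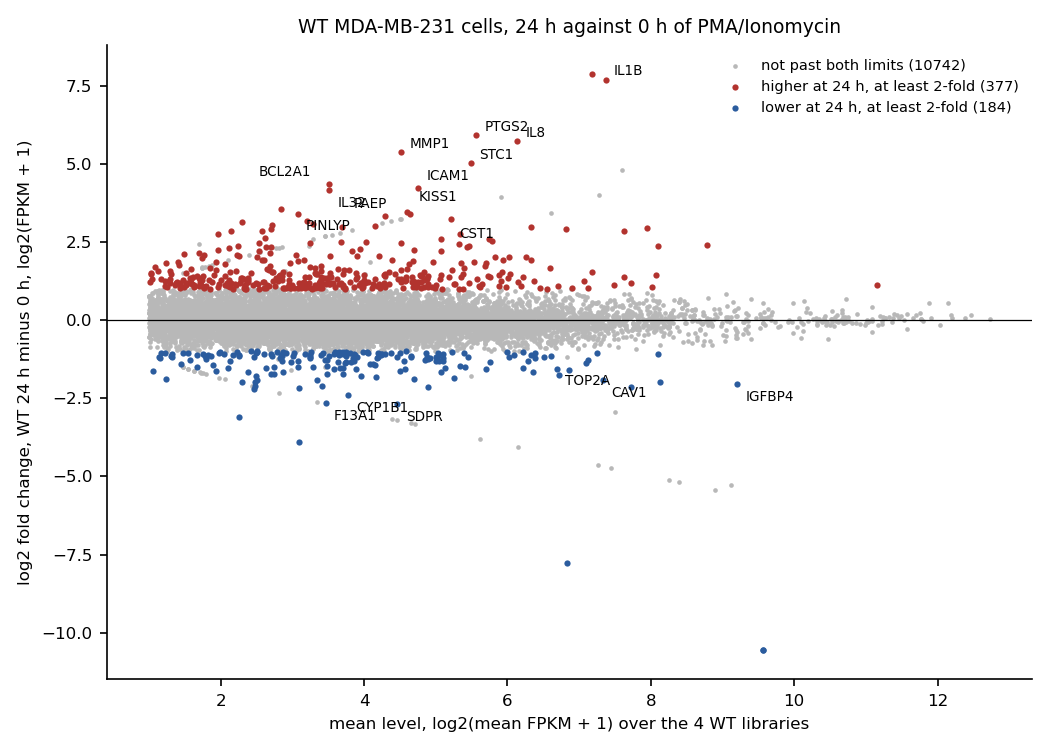
Log2 fold change between WT 24 h and 0 h (vertical axis, log2(FPKM + 1)) against the mean level over the 4 WT libraries (horizontal axis, log2 of mean FPKM + 1), 1 point per tested feature. The 377 features higher by at least 2-fold are red, the 184 lower ones blue and the rest grey, and the tallest named point is IL1B at 7.69. The lowest blue points and the red point above IL1B are features of small RNAs.

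Small RNAs aside, IL1B, PTGS2 and IL8 had the largest increases of the named genes. IL1B and PTGS2 were below 1 FPKM at 0 h and passed the filter only through their 24 h level. IL1B, the gene of the cytokine interleukin 1 beta (hg19 chromosome 2, 113587337 to 113594356), was at 0.737 and 0.453 FPKM at 0 h, 167 and 167 FPKM at 6 h and 326 and 330.5 FPKM at 24 h. It rose by 7.69 ± 0.087 (SE) on the log2 scale between 0 and 24 h (adjusted p = 1.07e-08), and by 0.97 ± 0.087 between 6 and 24 h (adjusted p = 0.000243). The 24 h libraries stood far above the 0 h libraries. PTGS2, which encodes cyclooxygenase 2, the inducible enzyme of prostaglandin synthesis, read 0.476 and 0.608 FPKM at 0 h and 89.6 and 95.0 FPKM at 24 h, a log2 fold change of 5.92 ± 0.071 (adjusted p = 1.07e-08). IL8, the neutrophil chemokine now named CXCL8, read 1.76 and 1.49 FPKM at 0 h, 1605 and 1594 FPKM at 6 h and 134 and 139 FPKM at 24 h, so its large increase at 24 h (5.72 ± 0.068; adjusted p = 1.07e-08) was what remained of a much higher level.

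Of 19 chemokine genes 7 passed the filter, 4 of them below 1 FPKM at 0 h, which had to be higher to pass. Of the 3 others, 2 were higher and none lower. CXCL1, CXCL3 and CXCL2, close relatives of IL8 that attract neutrophils, rose by 3.04, 2.85 and 2.07, and CCL2, which attracts monocytes, by 1.92. CCL20, the ligand of the receptor CCR6, was listed at 0 in both 0 h libraries and read 6.12 and 5.38 FPKM at 24 h. CCL5 was not called (1.17 and 1.49 FPKM on average). In the contrast of 24 h with 6 h, which uses the same 24 h libraries, 6 of the 7 were lower, where 25.1% of all tested features were lower and 20.6% higher.

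Interleukins and colony-stimulating factors moved both ways. Of the 12 that passed the filter 6 were below 1 FPKM at 0 h, and of the 6 others 3 were higher and 2 lower. Beside IL1B, the higher genes included IL32 (4.16), IL6 (2.48) and IL1A (1.52), which are cytokines of inflammation. CSF1, the growth factor of macrophages, rose from 15.1 to 92.8 FPKM on average and LIF, a cytokine of the IL6 family, from 29.8 to 65.1 FPKM. CSF2, which encodes the granulocyte and macrophage factor GM-CSF, kept little of its peak, reading 1.61 and 2.18 FPKM at 0 h, 540.2 and 522 FPKM at 6 h and 16.1 and 13.9 FPKM at 24 h. TNFSF15, a ligand of the tumor necrosis factor family, did the opposite and read 0.00918 and 0.00958 FPKM at 0 h, 0.768 and 0.712 FPKM at 6 h and 7.74 and 7.98 FPKM at 24 h. The 2 lower genes were IL18 (fell by 1.0), another cytokine of the IL1 family, and IL11 (fell by 0.70), which had stood at 415 and 388 FPKM at 6 h.

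**Figure D2:**
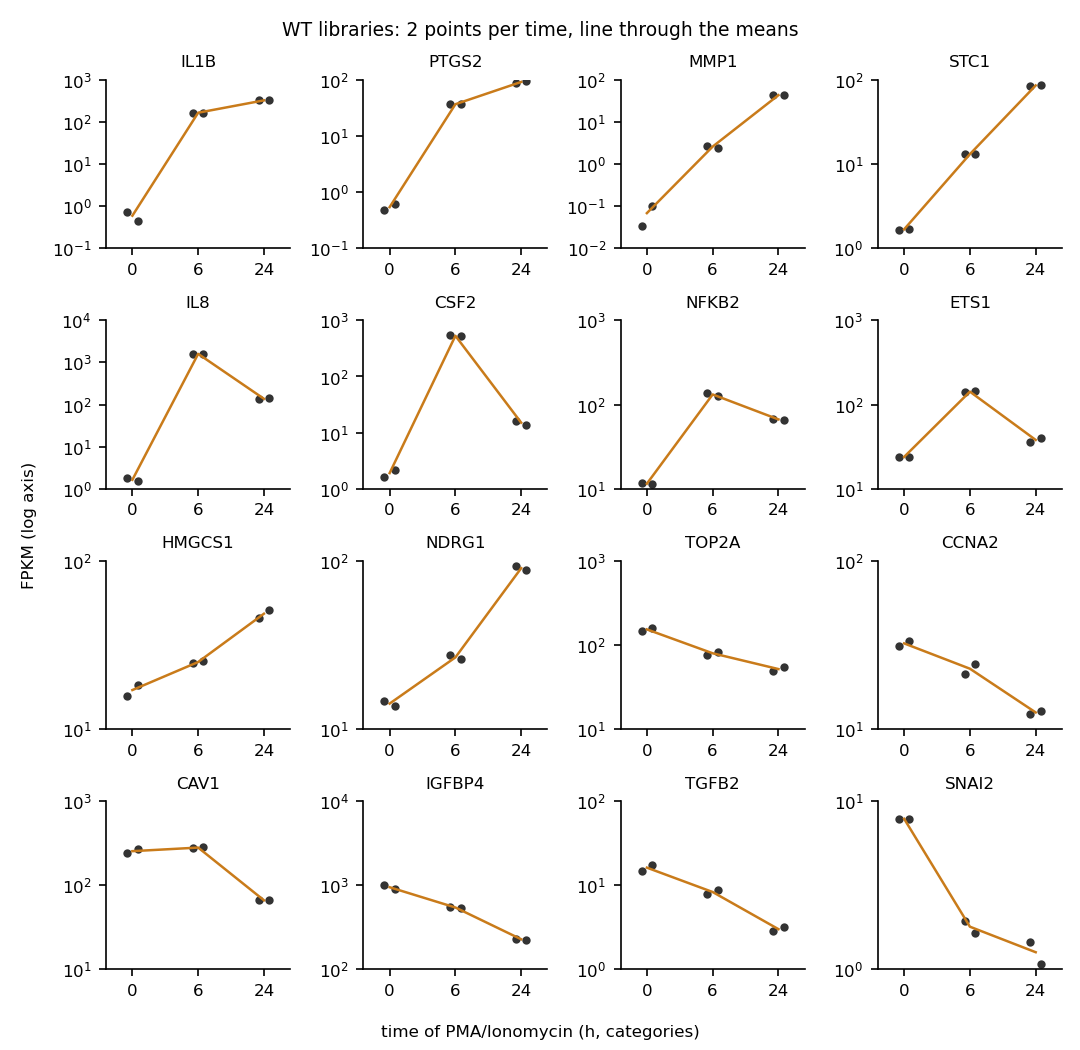
FPKM (log axis) of 16 genes in the 6 WT libraries at 0, 6 and 24 h of PMA/Ionomycin, 2 points per time with a line through the means. IL1B, PTGS2, MMP1 and STC1 are highest at 24 h, IL8, CSF2, NFKB2 and ETS1 at 6 h, and TOP2A, CCNA2, CAV1, IGFBP4, TGFB2 and SNAI2 are lowest at 24 h.

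Regulators of NF-κB stayed up. Of 12 tested subunits and feedback genes, 11 were higher, 8 of them by at least 2-fold, and none was lower. Of the 10 that were at 1 FPKM or more at both times, 9 were higher. RELB and NFKB2, the subunits of the noncanonical pathway, rose by 2.98 and 2.44: RELB read 1.94 and 1.91 FPKM at 0 h and 22.3 and 21.7 FPKM at 24 h, with no overlap between the groups. The canonical subunits NFKB1 and RELA rose less (0.68 and 0.46). The inhibitors followed, with NFKBIA, which holds NF-κB in the cytoplasm, at 1.40 and TNFAIP3, the ubiquitin-editing protein A20, at 1.42. All but 1 of the 12 were lower at 24 h than at 6 h, among them the apoptosis inhibitor BIRC3 (46.4 and 51.6 FPKM at 6 h and 4.20 and 4.46 FPKM at 24 h). TRAF1, an adaptor of the same receptors, went from 1.13 and 0.962 FPKM at 0 h through 81.5 and 80.8 FPKM at 6 h to 9.31 and 9.44 FPKM at 24 h.

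ICAM1, the adhesion receptor for leukocyte integrins, belonged to the same group of strongly higher genes, with 1.56 and 1.91 FPKM at 0 h, 259.6 and 256 FPKM at 6 h and 50.4 and 49.8 FPKM at 24 h (4.23 ± 0.073; adjusted p = 9.28e-08). The promoters of IL8, CXCL1 and ICAM1 are shown because they hold a match to the NF-κB core GGANTTTCC, searched on both strands. They are the 250 bases before the start in RefSeq's table for GRCh38.p14, at chr4:73740319-73740568, plus strand for IL8 (CXCL8 in that table), chr4:73869143-73869392, plus strand for CXCL1 and chr19:10270870-10271119, plus strand for ICAM1. Capitals mark the core and, in IL8, also the AP-1 motif TGACTCA.
IL8: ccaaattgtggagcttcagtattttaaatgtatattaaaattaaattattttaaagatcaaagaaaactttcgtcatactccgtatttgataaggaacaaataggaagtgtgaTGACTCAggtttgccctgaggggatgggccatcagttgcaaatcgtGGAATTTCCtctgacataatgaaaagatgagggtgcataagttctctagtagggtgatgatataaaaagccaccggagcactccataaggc
CXCL1: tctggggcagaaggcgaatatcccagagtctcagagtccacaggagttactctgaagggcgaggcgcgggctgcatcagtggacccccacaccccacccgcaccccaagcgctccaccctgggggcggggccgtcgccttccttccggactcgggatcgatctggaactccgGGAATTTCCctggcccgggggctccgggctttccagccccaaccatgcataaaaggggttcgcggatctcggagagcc
ICAM1: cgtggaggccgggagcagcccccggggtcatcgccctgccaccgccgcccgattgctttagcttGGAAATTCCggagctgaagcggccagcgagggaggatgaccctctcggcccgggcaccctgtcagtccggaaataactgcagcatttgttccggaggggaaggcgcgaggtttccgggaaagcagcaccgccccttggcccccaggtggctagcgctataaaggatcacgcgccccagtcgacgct
In IL8 the core ran from -91 to -83 relative to the start and the AP-1 motif from -137 to -131. The core ran from -78 to -70 in CXCL1 and from -186 to -178 in ICAM1, where a TGGAAA match overlaps it.

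Motifs were counted in promoters of 300 bases, from 250 before to 50 after the start, for the 8874 of 11102 tested single-gene symbols that matched the table. The NF-κB core stood in 5.61% of the 428 promoters of genes higher by at least 2-fold, in 1.39% of the 216 promoters of genes lower by at least 2-fold, and in 1.65% of the 13016 promoters of all tested genes. The AP-1 motif stood in 7.01%, 3.70% and 3.33% of these sets. Over the whole table of 35116 promoters the shares were 1.64% for the NF-κB core and 4.95% for AP-1. The core was in 4 of the 5 chemokine promoters that matched. The NFAT core TGGAAA, which can overlap an NF-κB core as in ICAM1, was in 18.7%, 14.4% and 15.5%. Its share over the whole table was 20.7%. A match is a description of letters, and a gene can have several promoters in the table.

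Factors of the early response were still raised in part. JUNB was the AP-1 gene with the largest increase, from 12.9 and 13.8 FPKM at 0 h to 76.1 and 69.4 FPKM at 24 h, and 7 of 10 tested AP-1 genes were higher and 1 was lower (median 0.61). FOSL1, an abundant AP-1 partner in these cells, rose from 102 to 173 FPKM on average, and its relative FOSL2 fell from 55.8 to 26.3 FPKM. FOS and JUN were not called, though FOS was called higher without WT 0 h replicate 2 (adjusted p = 0.00704). Of 8 EGR, NR4A and other immediate early genes, 5 were higher, with IER3 at 2.4, the orphan receptor NR4A1 at 1.84 and EGR1 at 1.65, and MYC, the driver of cell growth, was lower (fell by 0.87). Of the 6 at 1 FPKM or more at both times 4 were higher and 1 lower.

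ETS1, the factor whose promoter the study is about, lies on hg19 chromosome 11, 128328656 to 128457453. It read 24.0 and 23.7 FPKM at 0 h, 139 and 145 FPKM at 6 h and 36.2 and 39.7 FPKM at 24 h. Both 24 h libraries were above both 0 h libraries, with a log2 fold change of 0.65 ± 0.066 (adjusted p = 0.000243), and the 24 h level was below the 6 h level (-1.88 ± 0.066; adjusted p = 5.24e-06). With all 12 libraries in 1 model the adjusted p of the difference from 0 h was 0.357. Among 14 ETS factors 4 were higher and 6 lower, ETS1 had the largest increase, and ETS2 fell by 0.75.

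Isoforms of protein kinase C and D moved in both directions. Of 8 tested, 4 were lower and 3 higher (median -0.18). PRKCA, the classical isoform alpha that binds both phorbol ester and calcium, read 33.7 and 35.3 FPKM at 0 h and 11 and 11.1 FPKM at 24 h, and fell by 1.56 ± 0.061 on the log2 scale (adjusted p = 3.59e-06). PRKCE, an isoform that binds phorbol ester but not calcium, fell by 1.0, and PRKCD, another isoform of that class, rose by 0.56. On the calcium side, NFATC1 and NFATC2 rose by 0.53 and 0.58, and the calcineurin subunits PPP3CA and PPP3R1 fell by 0.76 and 0.46. RCAN1, a calcineurin inhibitor and a common target of NFAT, fell by 0.57.

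Of 14 phosphatases and inhibitors of MAP kinase signalling 6 were higher and 5 lower, where 25.9% and 27.8% of all features were. DUSP5, a nuclear phosphatase of ERK, read 17.2 and 16.9 FPKM at 0 h and 141 and 143 FPKM at 24 h, whereas DUSP1, which acts on p38 and JNK as well, read 59.8 and 57.8 FPKM and 15.8 and 15.5 FPKM. SPRY1, an inhibitor of receptor tyrosine kinase signalling, fell by 1.37. ERRFI1, the inhibitor of the EGF receptor, rose from 52.1 and 59.5 FPKM to 426 and 445 FPKM, and among the ligands AREG rose by 2.08 and TGFA fell by 1.05.

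Among proteases that act on the matrix, MMP1 had the largest increase. MMP1, the interstitial collagenase (hg19 chromosome 11, 102654407 to 102714342, a locus that overlaps 2 other features), read 0.0331 and 0.104 FPKM at 0 h, 2.75 and 2.48 FPKM at 6 h and 43.6 and 43.7 FPKM at 24 h. Its log2 fold change was 5.39 ± 0.082 (adjusted p = 4.24e-08), and it had the largest rise of all named genes after 6 h (3.63 ± 0.082; adjusted p = 1.07e-06). Of the 11 metalloproteinases and inhibitors that passed the filter 5 were below 1 FPKM at 0 h, MMP1 and MMP13 among them, and of the 6 others 2 were higher and 2 lower. MMP14, the membrane-bound metalloproteinase, rose from 29.5 to 122 FPKM on average and MMP13, another collagenase, from 0.138 to 3.15 FPKM. Among the inhibitors TIMP1 rose by 1.38, while TIMP3 and TIMP4 fell by 1.17 and 1.08.

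In the plasminogen system 8 of 11 tested genes were higher and 3 lower. PLAUR, the receptor of urokinase, rose by 1.54 and PLAT, the tissue activator, by 1.33, but PLAU, urokinase itself, fell from 202 and 190.0 FPKM to 82.5 and 79.9 FPKM. F3, the tissue factor that starts coagulation, fell by 1.65. Collagens and matrix glycoproteins were divided, 10 higher and 12 lower of 26 with a median of 0.01. Fibronectin (FN1) rose by 1.93 and the laminin chains LAMB1 and LAMB3 by 1.30 and 1.18. Collagen chains COL5A1, COL13A1 and COL4A1 fell by 1.49, 1.18 and 1.11, as did THBS1 (-1.53) and TGFBI (-1.36), which are glycoproteins of the matrix. The integrin subunits ITGA2 and ITGA5, which bind collagen and fibronectin, rose by 1.87 and 1.31, and ITGB4, a partner of laminin, fell by 1.88.

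The genes that fell the most were not of a single list. SDPR (cavin 2), a coat protein of caveolae, read 36.7 and 37.7 FPKM at 0 h and 5.28 and 4.55 FPKM at 24 h and fell by 2.69 ± 0.082 (adjusted p = 1.22e-06). CAV1, the main protein of caveolae and a marker of this line, fell from 242 and 266 FPKM to 66.3 and 66.3 FPKM, and that drop came after 6 h, when it read 279 and 282 FPKM. F13A1, the catalytic chain of coagulation factor XIII, went from 17.0 and 19.1 FPKM to 1.81 and 2.2 FPKM. IGFBP4, a binding protein of insulin-like growth factors and the most abundant of this set, read 1004 and 892 FPKM at 0 h, 554 and 534 FPKM at 6 h and 231 and 225 FPKM at 24 h. The cytochrome CYP1B1, the receptor ROR1 and LY6K, a surface protein of the LY6 family, fell by 2.4, 2.2 and 2.16. The keratins KRT80 and KRT81 both fell by 2.14, though KRT81 shares long stretches of sequence with its neighbours and its reads may be divided among them.

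ID2 and ID4, which block the binding of basic helix-loop-helix factors to DNA, fell by 2.10 and 1.97, and ID1 and ID3, chosen after their values were seen, by 1.74 and 1.35. In the TGF-beta family 9 of 22 genes were higher and 10 lower. Of the 20 at 1 FPKM or more at both times 7 were higher and 10 lower. Inhibin beta A (INHBA), the subunit of activin A, rose by 2.92 and its antagonist FST by 1.80, while the ligand TGFB2 read 14.8 and 17.6 FPKM at 0 h and 2.85 and 3.17 FPKM at 24 h. The inhibitory SMAD6 and SMAD7 fell by 1.93 and 1.03. SNAI2 (Slug), a repressor of epithelial genes, fell by 1.97 ± 0.11 (adjusted p = 1.56e-05), whereas SNAI1, ZEB2 and VIM were not called. Of 15 genes of the YAP and TEAD axis, 11 were lower and 2 higher (median -0.57), among them the targets CYR61 (-0.80), ANKRD1 (-1.06) and the receptor AXL (-1.22).

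**Figure D3:**
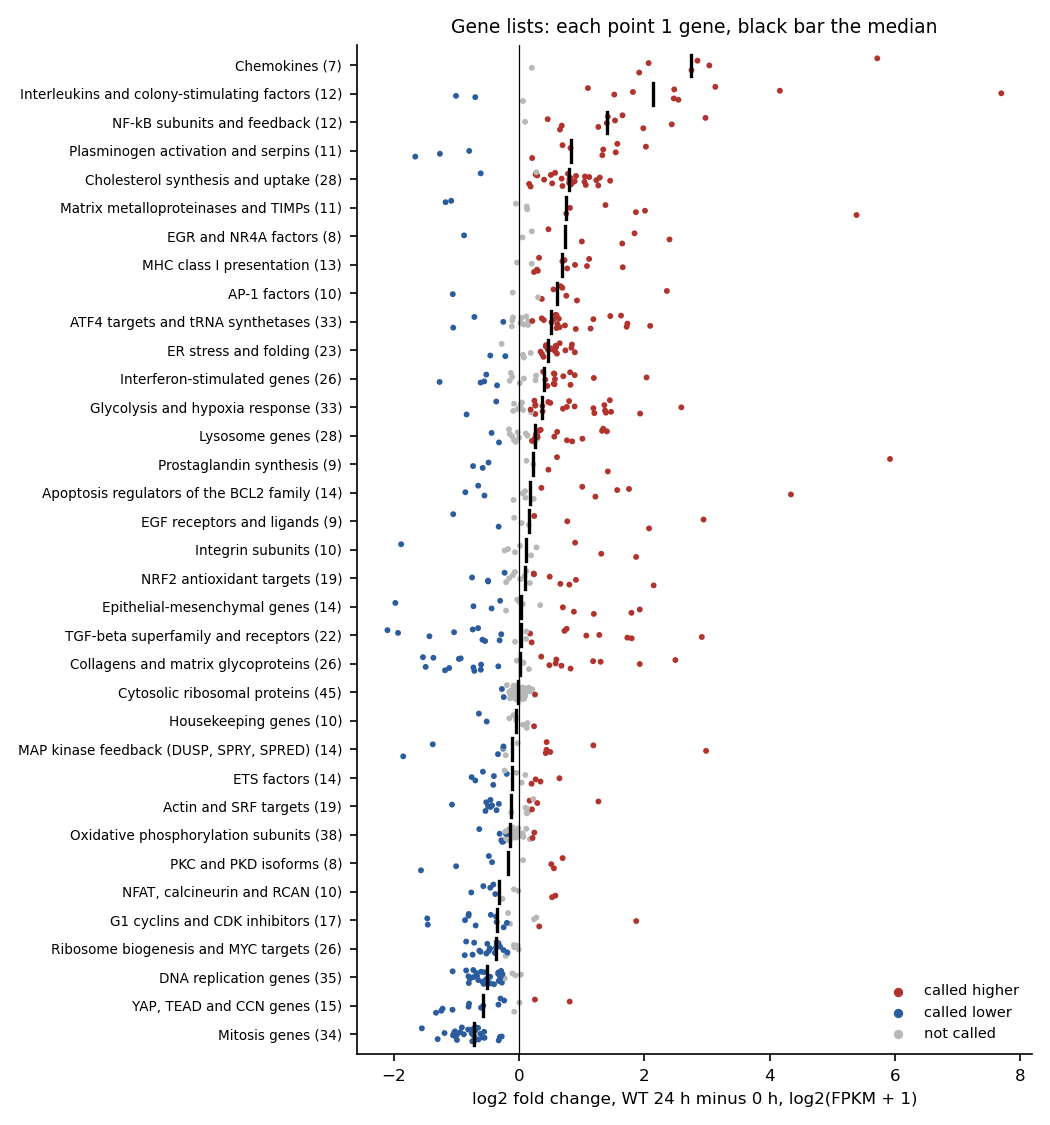
Log2 fold changes between WT 24 h and 0 h (horizontal axis, log2(FPKM + 1)) of the tested genes of each list with at least 5 of them, 1 point per gene, with the number tested in parentheses and a black bar at the median. Called genes are red or blue and the rest grey. The mitosis list has the lowest median, and 4 of the 7 chemokines, 6 of the 12 interleukins and 5 of the 11 metalloproteinases and inhibitors passed the filter only through their 24 h level.

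The genes of cell division went down together. All 34 tested mitosis genes were lower, 7 of them by at least 2-fold, with a median of -0.72 beside -0.02 over all features. TOP2A, the topoisomerase that untangles DNA before division (hg19 chromosome 17, 38544773 to 38574202), read 146 and 159 FPKM at 0 h, 76.7 and 82.3 FPKM at 6 h and 49.2 and 54.0 FPKM at 24 h and fell by 1.55 ± 0.076 (adjusted p = 1.01e-05). CCNA2, the cyclin of S phase and G2, fell by 1.30, the kinesins KIF11 and KIF20A by 1.19 and 1.03, and CDK1, the kinase that starts mitosis, by 1.02. The proliferation marker MKI67 fell from 70.6 and 71.8 FPKM to 42.8 and 44.1 FPKM, so that it remained well expressed. In the model of all 12 libraries 14 of the 34 were called, and TOP2A, KIF20A and MKI67 were not, whereas in that of 11 libraries all 34 were called. CDC25C, with the smallest difference of the list, lost its call without WT 0 h replicate 1 (adjusted p = 0.0633) or WT 24 h replicate 2 (adjusted p = 0.0989). Of the 34 genes, 28 were lower at 24 h than at 6 h and 1 was higher.

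DNA replication genes followed with smaller differences, 31 of 35 lower and none higher (median -0.52). RRM2, a subunit of ribonucleotide reductase, fell by 1.06, thymidylate synthase (TYMS) by 0.84 and PCNA, the sliding clamp, by 0.80. The 4 that were not called were POLE, POLA2, RFC2 and MCM5, with log2 fold changes between -0.23 and 0.03, and MCM5 was called lower without WT 0 h replicate 2 (adjusted p = 0.0106). The model of all 12 libraries called 10 of the 35. Among 17 regulators of G1, 11 were lower and 2 higher. CDKN1A, the inhibitor p21, read 12.8 and 12 FPKM at 0 h, 129 and 125 FPKM at 6 h and 48.4 and 47.5 FPKM at 24 h, a log2 fold change of 1.87 ± 0.061 (adjusted p = 1.74e-06). The other inhibitors went the other way or were not called, CDKN2C (p18) falling by 1.46 and CDKN1B (p27) by 0.86, as did the cyclins CCNE2 (-1.45) and CCNE1 (-0.69).

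**Figure D4:**
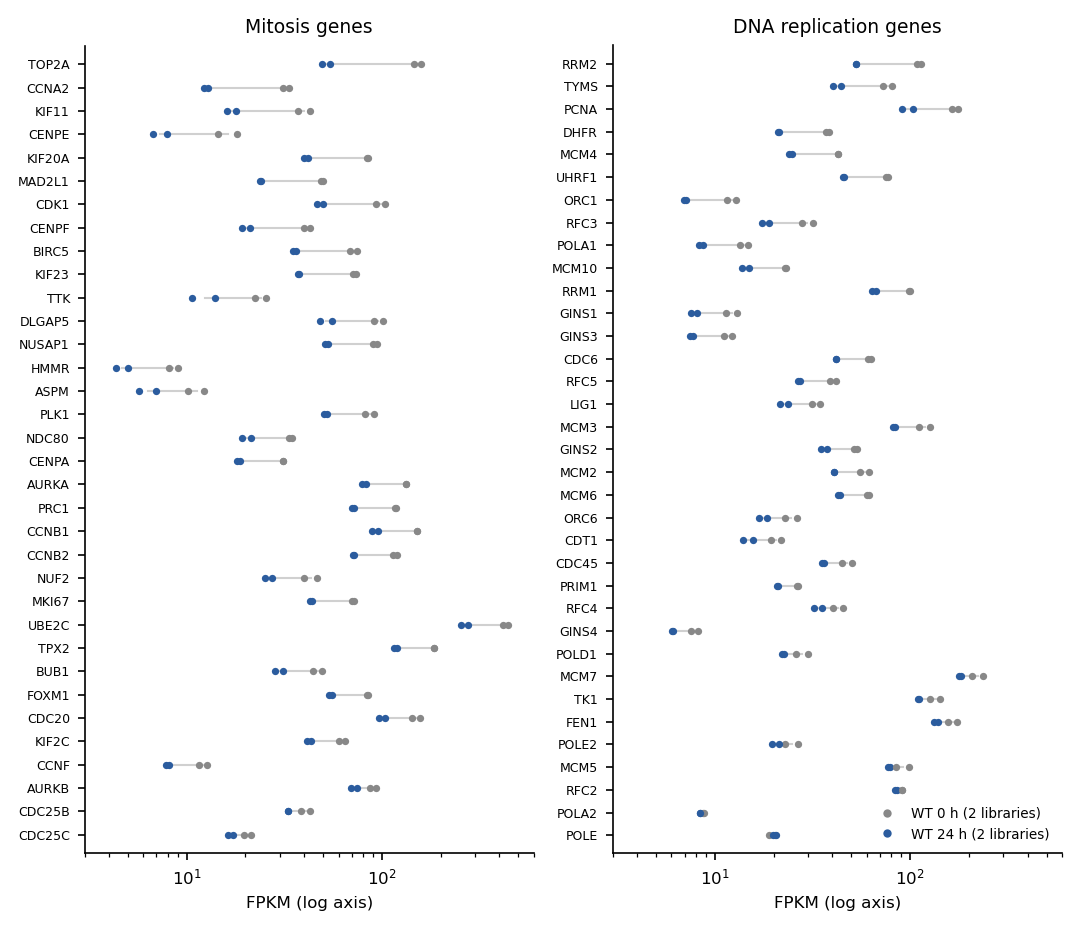
FPKM (log axis) of 34 mitosis genes and 35 DNA replication genes in the 2 WT 0 h libraries (grey) and the 2 WT 24 h libraries (blue), 1 gene per row, with a line between the means. The blue points lie left of the grey ones in every mitosis gene, from TOP2A at the top (-1.55) to CDC25C at the bottom (-0.27).

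The promoters of PLK1, the polo-like kinase of mitosis (fell by 0.74), and CCNB2, a cyclin of mitosis (fell by 0.70), are shown for the motif CHR (TTTGAA) with CCAAT boxes upstream, both known from promoters of cell cycle genes. They are again the 250 bases before the start in GRCh38.p14, at chr16:23678639-23678888, plus strand for PLK1 and chr15:59104896-59105145, plus strand for CCNB2. Capitals mark the CHR and, in CCNB2, the CCAAT boxes.
PLK1: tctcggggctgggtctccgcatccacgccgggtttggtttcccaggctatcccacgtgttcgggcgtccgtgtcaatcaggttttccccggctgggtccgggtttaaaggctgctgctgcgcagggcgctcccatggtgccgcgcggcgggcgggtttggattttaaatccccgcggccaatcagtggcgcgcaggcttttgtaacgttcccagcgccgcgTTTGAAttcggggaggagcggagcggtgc
CCNB2: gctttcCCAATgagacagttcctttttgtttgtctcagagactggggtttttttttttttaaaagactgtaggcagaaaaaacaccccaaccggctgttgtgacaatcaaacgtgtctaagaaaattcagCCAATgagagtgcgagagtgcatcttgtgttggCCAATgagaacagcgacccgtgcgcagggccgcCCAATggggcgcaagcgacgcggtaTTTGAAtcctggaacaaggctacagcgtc
The CHR ran from -29 to -24 in both. It was in 61.1% of the 36 promoters of mitosis genes and in 10.4% of those of all tested genes, and the CCAAT box in 77.8% and 34.9%. The CCAAT box was also in 70% of 30 promoters of cholesterol genes and 53.7% of 41 of ATF4 targets, which are described below. In DNA replication genes it was in 59.0% of 39, in NF-κB genes in 25% of 16 and in chemokines in 20% of 5. Promoters of DNA replication genes held the E2F motif TTTCGCGC in 15.4% of 39, beside 0.868% over all tested genes. Among all genes lower by at least 2-fold the share with a CHR was 16.2%, and among those higher by at least 2-fold 6.78%. Over the whole table of promoters the share with a CHR was 15.2%.

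Genes of ribosome assembly were lower as well, 19 of 26 with none higher (median -0.36). The nucleolar proteins DDX21, DKC1 and NCL fell by 0.86, 0.74 and 0.61, and the model of all 12 libraries called 4 of the 26. The proteins of the ribosome itself barely moved: 42 of 45 were not called, with 1 higher and 2 lower. Oxidative phosphorylation subunits had 28 of 38 not called, with 2 higher and 8 lower, and 7 of 10 housekeeping genes were not called.

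Cholesterol synthesis and uptake rose as a group, with 26 of 28 tested genes higher and 1 lower (median 0.80). HMGCS1, the enzyme that commits acetyl units to the pathway, read 15.7 and 18.4 FPKM at 0 h, 24.8 and 25.2 FPKM at 6 h and 45.8 and 51.1 FPKM at 24 h (1.46 ± 0.089; adjusted p = 2.56e-05). DHCR7, which carries out a late step of the pathway, rose by 1.07. The regulator SREBF2 rose by 0.58, and SREBF1, its relative for fatty acid synthesis, was the lower gene (fell by 0.61). Against 6 h, 25 of the 28 were higher and none lower. With all 12 libraries in 1 model 12 of them were called higher than at 0 h, and with 11 libraries 26.

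Genes of glycolysis and of the response to hypoxia were higher in 22 of 33 cases and lower in 2 (median 0.37). NDRG1, a stress-induced gene, had the largest increase of the list and read 14.7 and 13.7 FPKM at 0 h and 92.6 and 88.1 FPKM at 24 h. The aldolase ALDOC rose by 1.93 and the angiogenic factor VEGFA by 1.45. The abundant enzymes LDHA, PKM and ENO1 were not called, and SLC2A1, the main glucose carrier, and ADM fell by 0.36 and 0.83. HIF1A itself was not called. The model of all 12 libraries called 9 of the list higher, and 12 of the ATF4 targets that follow.

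Targets of ATF4, the factor of the amino acid and stress response, were higher in 20 of 33 cases and lower in 3 (median 0.52). CHAC1, which degrades glutathione, read 2.11 and 2.16 FPKM at 0 h and 12.1 and 12.7 FPKM at 24 h (2.09 ± 0.076; adjusted p = 2.7e-06), and ASNS, asparagine synthetase, rose by 1.14. The kinase inhibitor TRIB3 rose by 1.46, the alanine tRNA synthetase AARS by 0.91 and ATF4 by 0.60. The promoters of CHAC1 (chr15:40953221-40953470, plus strand) and ASNS (chr7:97872409-97872658, minus strand), again 250 bases of GRCh38.p14, are shown with their match to the CARE motif TGATGNAA in capitals.
CHAC1: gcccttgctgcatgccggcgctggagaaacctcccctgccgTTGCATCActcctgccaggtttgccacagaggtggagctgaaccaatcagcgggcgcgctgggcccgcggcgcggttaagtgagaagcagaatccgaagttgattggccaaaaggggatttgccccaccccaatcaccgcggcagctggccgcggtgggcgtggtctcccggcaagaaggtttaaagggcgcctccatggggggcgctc
ASNS: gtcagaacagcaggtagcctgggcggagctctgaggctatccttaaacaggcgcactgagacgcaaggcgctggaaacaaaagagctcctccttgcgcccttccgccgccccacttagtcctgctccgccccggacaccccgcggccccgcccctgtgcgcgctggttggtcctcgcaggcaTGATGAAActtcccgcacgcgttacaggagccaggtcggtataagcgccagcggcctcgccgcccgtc
The match lay on the opposite strand in CHAC1, from -209 to -202, and on the gene's own strand in ASNS, from -68 to -61. The motif was in 24.4% of 41 promoters of the list and in 1.91% of those of all tested genes.

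Chaperones and other genes of the endoplasmic reticulum were higher in 17 of 23 cases (median 0.46), though none by 2-fold, and 18 of them were lower than at 6 h. With all 12 libraries in 1 model 4 were called higher. HSPA5, the chaperone BiP, read 296 and 295 FPKM at 0 h, 1314 and 1379 FPKM at 6 h and 422 and 428 FPKM at 24 h. Lysosome genes were higher in 15 of 28 cases and lower in 2, with NEU1, a sialidase, at 1.40 and NPC1, the exporter of cholesterol from lysosomes, at 1.33. Antioxidant targets of NRF2 showed no common direction, 7 higher and 4 lower of 19.

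Antigen presentation by MHC class I was raised in 11 of 13 genes and lowered in none (median 0.69). HLA-B read 19.7 and 18.8 FPKM at 0 h and 62.6 and 62.9 FPKM at 24 h, TAP1, the peptide transporter, rose by 1.12 and HLA-E, a ligand of receptors on natural killer cells, by 0.90. HLA-B can share reads with other class I genes of similar sequence. With all 12 libraries in 1 model none of the 13 was called. Interferon-stimulated genes were higher in 14 of 26 cases and lower in 5, with IRF9, a subunit of the interferon-activated complex ISGF3, at 2.04 and IFIT2, an RNA-binding effector, at -1.27.

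In the BCL2 family, which controls apoptosis, 6 of 14 genes were higher and 3 lower, and of the 10 at 1 FPKM or more at both times 3 were higher and 2 lower. BCL2A1, a protector from apoptosis, read 0.15 and 0 FPKM at 0 h, 30.5 and 40.2 FPKM at 6 h and 18.8 and 22.8 FPKM at 24 h (4.34 ± 0.15; adjusted p = 2.09e-06), and MCL1, another protector, rose by 1.01. BCL2, the founding protector, fell by 0.55. The members that favour apoptosis were divided as well, since BMF, BIK and BBC3 (PUMA) rose by 1.76, 1.57 and 1.22 and BCL2L11 (BIM) fell by 0.85.

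Several of the most strongly higher genes belong to no list. STC1, the secreted glycoprotein stanniocalcin 1, read 1.65 and 1.71 FPKM at 0 h, 13.1 and 13.2 FPKM at 6 h and 84.6 and 87.7 FPKM at 24 h (5.02 ± 0.063; adjusted p = 1.14e-08). PAEP, the secreted protein glycodelin, stayed low until 6 h (4.22 and 4.74 FPKM) and read 46.7 and 40.4 FPKM at 24 h. KISS1, the precursor of kisspeptin, rose by 3.41 and PINLYP, which carries the fold of phospholipase A2 inhibitors, by 3.41. CST1, a secreted inhibitor of cysteine proteases with close paralogs that can share its reads, rose by 3.24.

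Set against 6 h, the 24 h state kept moving in both directions. The contrast of 24 h with 6 h, which tests whether the changes at the 2 times differ and uses the same 24 h libraries, called 2325 features higher (20.6%) and 2832 lower (25.1%). Rescaling FPKM to TPM turned this split to 3182 higher and 1699 lower and moved the median of all features from -0.03 to 0.08, so the balance of small differences depends on the scaling. Counts of higher and lower features were 1562 and 1804 without WT 6 h replicate 1, 1503 and 1793 without WT 6 h replicate 2, and 1501 and 1718 without WT 24 h replicate 1. Of the 377 features higher than at 0 h by at least 2-fold, 233 were also higher than at 6 h, 68 were lower than at 6 h and 76 were not called. Of the 184 lower features, 133 were lower than at 6 h too.

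The latest genes were MMP1, PAEP and STC1, followed by TNFSF15, LCP1 and C21orf7. LCP1 (L-plastin), which bundles actin, read 4.70 and 3.91 FPKM at 0 h, 4.22 and 4.27 FPKM at 6 h and 23.7 and 25.3 FPKM at 24 h, so that its whole rise fell after 6 h. C21orf7, which resembles the kinase TAK1, read 0.787 and 0.684 FPKM at 6 h and 7.19 and 6.36 FPKM at 24 h. At the other end stood CSF2 (-5.06 from 6 to 24 h), PTX3, CCL20 (-3.72) and IL8 (-3.54). PTX3, the secreted pattern recognition protein pentraxin 3, whose locus overlaps another feature, went furthest round: it read 11.3 and 10.7 FPKM at 0 h, 150.4 and 149.8 FPKM at 6 h and 6.66 and 7.73 FPKM at 24 h, below its starting level (-0.56 ± 0.078; adjusted p = 0.00100).

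The ΔCRE libraries gave a second view of the same 24 h of stimulation in cells that share no library with the WT comparison. The library labelled ΔCRE 0 h replicate 1 stands apart from the rest of the series, so the 2 ΔCRE 24 h libraries were set against ΔCRE 0 h replicate 2 alone, with no test. Of the 377 features higher in WT cells by at least 2-fold, 375 were higher in ΔCRE cells, beside 48% of all tested features, and 277 by at least 2-fold, beside 3.18%. However, 73 of the 377 were below 1 FPKM at 0 h in WT cells and passed the filter only through their 24 h level. A feature near 0 at 0 h in ΔCRE cells too can hardly be lower at 24 h. The same direction was thus partly fixed in advance for such features, and no count without them was made. Of the 184 lower features, 179 were lower, beside 51.8%, and 128 by at least 2-fold, beside 1.98%. The median differences were 1.21 and -1.19, and -0.02 over all features. With both ΔCRE 0 h libraries, the same direction was seen in 329 and 173 features, and 173 and 81 differed by at least 2-fold.

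Single genes varied in how near the 2 genotypes lay. IL1B read 0.485 FPKM in ΔCRE 0 h replicate 2 and 220.2 and 206 FPKM in the ΔCRE 24 h libraries, MMP1 0.157 FPKM and 73.4 and 72.7 FPKM, and STC1 1.10 FPKM and 83.6 and 83.7 FPKM. KISS1 and CST1 reached lower levels than in WT cells, with 10.6 and 8.43 FPKM and 7.14 and 7.68 FPKM at 24 h. Both also started lower, at 1.66 FPKM for KISS1 and 0.509 FPKM for CST1 in ΔCRE 0 h replicate 2. The WT 0 h libraries read 3.22 and 3.37 FPKM for KISS1 and 5.23 and 7.03 FPKM for CST1. In ΔCRE cells ETS1 itself read 16.5 FPKM in 0 h replicate 2 and 29.3 and 30.7 FPKM at 24 h. Whether these differences between the genotypes exceed the spread of libraries was not tested here.

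**Figure D5:**
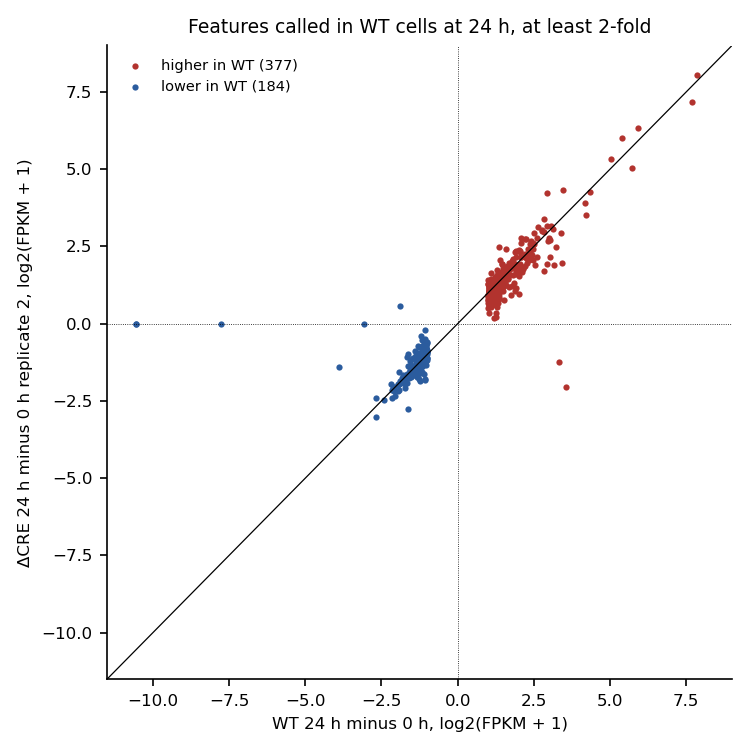
Difference between 24 h and 0 h in ΔCRE cells (vertical axis, mean of 2 libraries minus 0 h replicate 2, log2(FPKM + 1)) against that in WT cells (horizontal axis) for the 377 higher (red) and 184 lower (blue) features, with the line of equality. Of the red points 375 lie above 0 and of the blue ones 179 below 0, and the points far left that lie at 0 are small RNAs.

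The model of all 12 libraries called fewer members of most other lists too, though integrin subunits kept 3 higher and 1 lower. Of the NF-κB genes 8 were higher, of the chemokines 4 and of the interleukins and colony-stimulating factors 8, with 1 lower. Higher and lower members numbered 3 and 0 for AP-1 factors, 3 and 1 for immediate early genes, 0 and 1 for ETS factors and 1 and 1 for protein kinase C and D. They numbered 2 and 1 for MAP kinase feedback, 3 and 2 for metalloproteinases and their inhibitors, 5 and 2 for the plasminogen system and 6 and 3 for collagens and glycoproteins. The TGF-beta family had 4 and 4, the YAP and TEAD axis 1 and 3, regulators of G1 1 and 5 and the BCL2 family 2 and 1. Lysosome genes had 3 and 0, interferon-stimulated genes 6 and 2 and targets of NRF2 1 and 0.

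Features of small RNAs behaved unlike the rest. Of 109 tested features with such names 8 are long host transcripts of microRNAs, and of the rest 84 were at 0 in at least 1 of the 4 libraries and 10 were called. MIR21 and SNORD96A carried the same values, 1335.6 and 1699.9 FPKM at 0 h and 0 in the other 4 WT libraries. RNU6-28 was at 0 at 0 h and had the largest increase of all on the log2 scale (7.86). None of these 10 is described as a change here, since the libraries were made from mRNA and all 10 were at 0 in at least 1 WT library. Transcript length was related weakly to the differences of the other genes: across 10752 genes Spearman's rho was -0.15, and with the genes in 4 equal groups by length, the median log2 fold change was 0.04 in the group of the shortest transcripts and -0.13 in that of the longest. Its part in the results was not tested.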

How the data were processed

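RNA-sequencing was performed on MDA-MB-231 cells, WT or ΔCRE, stimulated with PMA/Ionomycin for 0, 6 or 24 h. The authors made stranded mRNA libraries, mapped them to hg19 with TopHat 2.0.12 and estimated expression with Cufflinks 2.2.1. The deposited table gives FPKM for 24331 features in each of the 12 libraries. The gene annotation, and whether FPKM was scaled between libraries, are not given in the sources used here. FPKM keeps no fragment counts, so no counting interval was computed. The column read as ΔCRE 0 h replicate 2 has a digit in place of a letter in its name, and was matched to the only label left.

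A pseudocount of 1 was added before taking log2. The test was limma 3.58.1 (R 4.3.3; eBayes with a trend, two-sided) on features averaging at least 1 FPKM in the 4 compared libraries, in 1 model of 3 groups and 6 WT libraries, with 3 residual degrees of freedom. The study tested pairs of groups with Cuffdiff. The procedure was run on simulated data, in which few features changed and all by 2-fold. That setting differs from these data, so it does not give their error rate. ΔCRE libraries were left out of the model because 1 of them stands apart. Promoters came from RefSeq (GRCh38.p14), transcript lengths from GENCODE for GRCh37. The motifs searched on both strands were AP-1 (TGACTCA), the NF-κB core (GGANTTTCC), the NFAT core (TGGAAA), E2F (TTTCGCGC), CHR (TTTGAA), the CCAAT box and CARE (TGATGNAA), and, not reported, those of CREB, EGR1, NRF2, SRF and SREBP. Figures and tables used Python 3.11.15, pandas 2.3.3 and matplotlib 3.10.9.

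Named genes are members of the gene lists, the 12 highest and 12 lowest log2 fold changes among called genes whose groups do not overlap (6 each against 6 h), without small RNAs and features of several genes, and ETS1. ID1 and ID3 were added. Some members of the lists are counted but not reported here by name. The members and lists were chosen with earlier results of these data known. For a symbol with several features the one with the highest mean was used, and 196 tested features name several genes. Alternatives were another pseudocount (0.1), another filter (none, or 5 FPKM), TPM, quantile normalization, eBayes without trend, other sets of libraries, the replicate block and leaving out each library.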

Additional observations from a re-analysis of the deposited data

Results flagged for a closer look

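In 4 of the 174 genes named here or taken by the naming rule, both 24 h libraries of WT cells lay on one side of both 0 h libraries, and both ΔCRE 24 h libraries lay on the other side of ΔCRE 0 h replicate 2. Over all 11303 tested features 400 had this pattern. These differences between the genotypes were not tested, and a single ΔCRE 0 h library stands behind each. IL11 fell in WT cells and differed by 0.27 on the log2 scale in ΔCRE cells, which read 141.6 FPKM at 0 h and 179.7 and 163.6 FPKM at 24 h. PTGES fell in WT cells and differed by 0.017 in ΔCRE cells. PDGFRB, called higher in WT cells at 24 h but not under 10 of 15 alternatives, differed by -0.024 in ΔCRE cells, and COL1A1, not called in WT cells, by -0.028.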

How the results depend on the processing

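Direction was checked for 186 differences of single genes, and none that was called changed it. Most alternatives could not have changed it, since a log2 fold change is a difference of group means. Only another pseudocount, TPM, quantile normalization or leaving out a library of the groups compared could alter it. Of the 186 differences, 136 kept their side of the threshold throughout. The model of all 12 libraries was the strictest: it called 775 features higher and 522 lower at 24 h against 0 h, 120 lower by at least 2-fold, and 336 higher and 332 lower against 6 h. There 48 single-gene differences lost their call, among them ASNS, BCL2A1, CCL20, CD68, ETS1, HLA-B, IL32, NDRG1, PTX3, THBS1, TOP2A and, against 6 h, MMP1. In a model of 11 libraries without ΔCRE 0 h replicate 1, chosen after seeing the data, 3013 features were higher and 3210 lower. A pseudocount of 0.1 gave 584 features higher and 311 lower by at least 2-fold. Against 6 h, a mean FPKM of at least 5 left 1524 higher, and rescaling to TPM left 1699 lower. The cause was not tested. Without 1 library at a time, features higher than at 0 h numbered between 2123 and 2810 and lower ones between 2066 and 2966; by at least 2-fold they numbered between 370 and 397 and between 169 and 239. Against 6 h the ranges were 1501 to 2478 and 1718 to 3029. Whether the replicate numbers pair the samples is not given in the sources used here. Correlations of replicate deviations between times were between -0.034 and -0.016. They are taken over all tested features, so they cannot exclude a shared replicate effect in some genes. With the replicate block, 3309 features were higher and 3626 lower than at 0 h, and 2725 and 3401 than at 6 h. MCM5 was called lower with the block (adjusted p = 0.0133), with TPM and with 11 libraries. FPKM keeps no fragment counts, so the precision of low values is not known from counting, and 2 libraries per time limit every spread.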

Other observations

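Further lists had members on both sides, where 25.9% of all features were higher and 27.8% lower. Among 9 tested genes of prostaglandin synthesis 4 were higher and 3 lower, and 2 and 1 in the model of all 12 libraries. Of the 9, 2 were below 1 FPKM at 0 h, PTGS2 among them, and of the 7 others 2 were higher and 3 lower. PLA2G4A, the phospholipase that frees arachidonic acid, rose by 1.42 along with PTGS2, while PTGES, the synthase of prostaglandin E2, fell by 0.73. Genes of actin and of the factor SRF were lower in 9 of 19 cases and higher in 4, and in 1 and none with all 12 libraries, with TAGLN falling by 1.07 and the tropomyosin TPM2 rising by 1.27. Of 14 epithelial and mesenchymal genes 5 were higher and 4 lower, shares near those of all features, and 2 and 1 with all 12 libraries. CLDN1, a protein of tight junctions, rose by 1.80 and KRT19, an epithelial keratin, by 0.70, whereas the keratins KRT8 and KRT18 fell by 0.72 and 0.44.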
